A study of Mus musculus with 6 samples.

Results

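Long intergenic noncoding RNAs (lincRNAs) are transcripts made from their own loci between protein-coding genes, usually capped, spliced and polyadenylated, with no long reading frame. The 56 RNAs described here are the rows of the series' count table whose deposited biotype is lincRNA, chosen by level: the mean over the 6 libraries was at least 5 CPM (counts per 1000000 counts of the library). They were taken from 392 lincRNA rows and 15898 listed genes in all. The libraries were made from exhausted CD8+ T cells of B16F10 melanomas in C57BL/6 mice. All mice received total body irradiation of 4 Gy, 2000000 naive Thy1.1+ PMEL T cells (genotype B6.Cg-Thy1a/Cy with the transgene Tg(TcraTcrb)8Rest/J, whose T cell receptor sees the melanocyte antigen gp100), and then the tumour cells. On day 10 they were given 5000000 activated Thy1.2+ PMEL CD8+ cells. From that day they had 4 peritumoral injections, every other day, either of 20 µg IL-10/Fc, interleukin-10 fused to an antibody Fc part (4 libraries), or of phosphate-buffered saline, PBS (2 libraries). On day 18, 500 Thy1.1+ CD8+ cells bearing PD-1 and TIM-3 were sorted for each library, so the Thy1.2+ cells given on day 10 lie outside the gate. Whether every library is a separate mouse is not stated in the labels, and p-values may in part reflect technical spread.

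The deposited counts summed to 31227321, 29978621, 28235203 and 36941814 across the IL-10/Fc replicates, 1 to 4, and to 26738871 and 28774401 in PBS replicates 1 and 2. At these depths 3 counts equal 0.0812 to 0.112 CPM, far below the members' threshold. Levels are given as CPM scaled by TMM, edgeR's correction for differences in composition between libraries, unless stated. All 10 CD8 T cell markers on the list (Cd3d, Cd3e, Cd3g, Cd8a, Cd8b1, Thy1, Pdcd1, Havcr2, Tox, Gzmb) were measured, and their summed level was 16163 to 19096 CPM in IL-10/Fc against 7482 in PBS replicate 1 and 11498 in PBS replicate 2. Macrophage and monocyte markers were also present (15 of 15 measured), with sums of 258 to 1135 CPM in IL-10/Fc and of 333 and 491 CPM in PBS. Sums of 7 measured dendritic cell and MHC class II genes were 172 to 1915 CPM in IL-10/Fc and 228 and 310 CPM in PBS, and 4 measured melanoma markers summed to 4.76 to 9.04 CPM in IL-10/Fc and 0.645 and 6.34 CPM in PBS. The remaining lists were low: NK cell markers (4 of 6 measured) summed to 21 to 36.8 CPM in IL-10/Fc and 7.02 and 60.1 CPM in PBS, B cell markers (2 of 5) to 3.92 to 15.5 CPM in IL-10/Fc and 42.5 and 42.8 CPM in PBS, neutrophil markers (2 of 3) to at most 2.68 CPM in IL-10/Fc and 0.196 CPM in PBS, and fibroblast and endothelial markers (2 of 5) to 6.59 to 9.87 CPM in IL-10/Fc and 20.4 and 16.6 CPM in PBS. Single genes carried some of these sums. In PBS the B cell sum was nearly all Ighm (42.5 and 42.1 CPM). Cd79b went the other way, with 1.74 to 6.56 CPM in IL-10/Fc and 0 and 0.719 CPM in PBS. The fibroblast and endothelial sum in PBS was nearly all Pecam1 (20.4 and 16.6 CPM), and Eomes gave 46.7 CPM of the NK cell sum in PBS replicate 1. In bulk samples fewer cells of a type and less RNA per cell cannot be told apart.

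Some of these RNAs have known work. Malat1 sits in nuclear speckles, where splicing factors gather, and Neat1 is the scaffold of paraspeckles, nuclear bodies that hold RNA-binding proteins such as Sfpq and Nono. Xist coats and silences an X chromosome. Others are hosts, whose introns or exons carry small RNAs: Mir142hg gives rise to miR-142, an abundant microRNA of blood cells, Mir155hg to miR-155, which is induced when lymphocytes are activated, and the Snhg genes carry small nucleolar RNAs that guide the modification of ribosomal RNA. AW112010 is an immune transcript induced by interferon and endotoxin, from which mouse macrophages translate a small protein, and in mouse CD4 T cells it has been described as a repressor of Il10. Of the 56 names, 25 are numbered Gm gene models, 11 are Rik clones and 4 are BAC or contig names, many of them without a described role.

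Of the 3 members that carry a microRNA on their own strand, Mir142hg, Mir155hg and Snhg20 (Mir6516), the mature microRNAs of Mir142hg and Mir155hg are shown because these RNAs are named for them. They lie at chr11:87756867-87756887 and chr11:87756903-87756925 for Mir142hg, and at chr16:84714143-84714165 and chr16:84714182-84714202 for Mir155hg, all on the plus strand of GRCm38.p6 (RefSeq). Capitals mark the seed, bases 2 to 8, which pairs with target RNAs. No pair of the 4 shares a seed. Mature microRNAs have no poly(A) tail and were not measured in these libraries.
miR-142a-5p: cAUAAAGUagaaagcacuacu
miR-142a-3p: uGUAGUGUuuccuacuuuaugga
miR-155-5p: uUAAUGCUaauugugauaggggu
miR-155-3p: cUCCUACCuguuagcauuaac

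RefSeq promoter windows, 250 bases before to 50 bases after the start site, were at hand for 28 of the 56 RNAs (32 windows). The windows of AW112010, the most abundant member, of Gm19585 and of Gm19705, the member that differed most between treatments, are shown, with the transcribed bases in capitals. They are chr19:11050517-11050816 on the minus strand, chr17:52149039-52149338 on the plus strand, and, for the upstream start of a pair that RefSeq gives to Gm19705, chr1:136683146-136683445 on the plus strand. Both Gm19705 starts fall inside the span deposited for that gene. The 3 windows hold 40%, 41% and 45.3% G or C and 1, 2 and 2 CpG dinucleotides, beside medians of 50.7% and 8 over the 32 member windows and of 52.7% and 7 over 32851 RefSeq windows.
AW112010: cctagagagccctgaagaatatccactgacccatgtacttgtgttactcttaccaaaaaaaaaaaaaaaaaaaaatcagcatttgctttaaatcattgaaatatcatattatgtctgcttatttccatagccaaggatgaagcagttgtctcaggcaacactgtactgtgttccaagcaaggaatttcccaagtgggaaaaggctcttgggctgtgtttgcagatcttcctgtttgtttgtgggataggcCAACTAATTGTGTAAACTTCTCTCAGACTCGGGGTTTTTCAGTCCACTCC
Gm19585: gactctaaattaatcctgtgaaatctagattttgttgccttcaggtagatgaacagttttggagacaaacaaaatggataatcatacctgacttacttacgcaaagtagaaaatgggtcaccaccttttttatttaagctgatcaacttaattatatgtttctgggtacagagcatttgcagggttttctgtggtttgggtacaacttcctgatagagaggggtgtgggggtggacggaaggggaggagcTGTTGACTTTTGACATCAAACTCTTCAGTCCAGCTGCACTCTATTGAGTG
Gm19705: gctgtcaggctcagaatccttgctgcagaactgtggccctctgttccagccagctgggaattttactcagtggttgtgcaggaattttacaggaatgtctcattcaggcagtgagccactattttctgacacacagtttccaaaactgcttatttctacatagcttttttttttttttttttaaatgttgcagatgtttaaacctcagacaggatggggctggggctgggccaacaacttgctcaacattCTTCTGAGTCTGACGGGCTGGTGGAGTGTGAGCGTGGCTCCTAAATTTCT

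A search of both strands for the STAT motif TTCNNNGAA, bound by factors such as the STAT3 that IL-10 activates, found it in 2 of 32 member windows (6.25%), those of 1810058I24Rik and Dubr, beside 8.30% of the 32851 windows of the same length. The E-box CACGTG had no match in the member windows and was in 7.15% of all windows. The cAMP response element TGACGTCA was in the window of 1300002E11Rik (3.12% of member windows, beside 1.79% of all), and the TATA box TATAAA in those of Xist and Gm42031 (6.25% of member windows, beside 13.6% of all). Hits of different motifs were counted separately and may overlap. None of these letters was in the 3 windows printed, which says nothing about which factors bind there.

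Abundance was concentrated in a few RNAs. AW112010 took 67.5% of all member counts, and with Malat1 and Gm42418 the top 3 took 85.0%. Only 8 RNAs averaged at least 100 CPM of the library total and 23 at least 20 CPM, while 33 lay between 5 and 20 CPM. These means chose the members and are a description. The lowest inside the threshold were RP24-318O6.3 at 5.20 CPM and CAAA01180111.2 at 5.06 CPM, and the nearest lincRNAs outside were 6330403K07Rik at 4.92 CPM and Gpr137b-ps at 4.87 CPM. AW112010 ranked 7 among all listed genes by mean CPM, and also 7 by CPM per kilobase of exon among the 15846 genes with a GENCODE length.

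Per kilobase of exon, the order of the members changed. AW112010, with 804 bases of exon, led at 9491 CPM per kilobase, followed by Gm42418 at 437, Gm26623 at 176, Malat1 at 172, Gm19585 at 111 and Mir142hg at 98.6. Neat1, whose single exon spans 20771 bases, had 1.25 CPM per kilobase and ranked 51 of the 55 members with a length. Malat1 and the long form of Neat1 end in a triple helix in place of a poly(A) tail, and Smart-Seq2 primes on poly(A), so these levels need not follow the amounts in the cell. The median member had 3 exons and 2091 bases of exon, and 8 had a single exon.

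Not every member was a lone gene. In GENCODE M21, 28 of 55 matched members shared exon bases with another gene, 7 of them over at least 25% of their exon length, and 7 with a protein-coding gene. The library type does not mark strand, so reads of such partners cannot be told apart. Exons of Gm42418 were overlapped over 99.5% of their length by AY036118 and a ribosomal RNA gene on the opposite strand, and Gm26917 lies next to it on chromosome 17. Both values are therefore uncertain. 2310031A07Rik shared 61.5% of its exon bases with Med7, a Mediator subunit, and 4833407H14Rik 67.5% with Mirt1, which is also a member. RefSeq lists 1810058I24Rik and Gm6712 as protein-coding genes under their own symbols. GENCODE M21 names C330006A16Rik Tmem250-ps and CAAA01180111.2 Gm39469. RefSeq lists both as protein-coding genes under these symbols, which cover 99.6% and 100% of the deposited spans. The span of Gm37494 (99.9%, in Gm33989) lies nearly whole in a RefSeq protein-coding gene of another symbol. The same holds for 4930562F07Rik (100%, in 4930523C07Rik), Gm28933 (99.8%, in Foxn3), Gm26880 (100%, in Zfp981) and Gm26819 (100%, in Med10). In all, the spans of 13 members overlap a RefSeq protein-coding gene. The spans of Gm11707 (96.6%, in Gm8339) and Gm26623 (100%, in Gm6722), among others, lie nearly whole in RefSeq pseudogenes. The span of 1700020I14Rik overlaps Oip5os1, the RNA known as Cyrano.

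Expressed lincRNAs as a group took a larger share of counts after IL-10/Fc. The share was 1.36%, 1.27%, 1.20% and 1.37% of listed counts in the IL-10/Fc libraries (mean 1.30% ± 0.0801, SD, n = 4), against 0.680% and 0.937% in the PBS libraries (mean 0.809% ± 0.182, SD, n = 2). The groups did not overlap. AW112010 alone held 0.934%, 0.867%, 0.835% and 0.979% in IL-10/Fc, against 0.353% and 0.611% in PBS. Without AW112010 and Malat1 the other 54 RNAs summed to 0.255% ± 0.020 in IL-10/Fc (SD, n = 4) and 0.249% ± 0.0226 in PBS (SD, n = 2), a difference smaller than the spread between replicates. In these sums the difference in share lay in AW112010 and Malat1. The largest of the other 54, Gm42418, took 6.86% of all member counts, and its value is uncertain, as given above. The sum without Gm42418 was not taken, so the remaining RNAs may still differ in share.

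**Figure D1:**
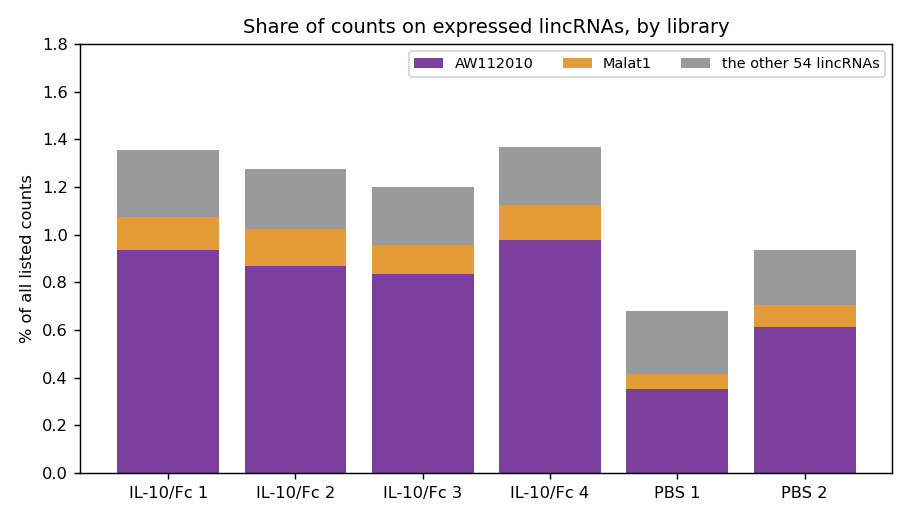
Share of all listed counts (percent, y axis) on the 56 expressed lincRNAs in each library, stacked as AW112010, Malat1 and the other 54 RNAs. The 4 IL-10/Fc bars reach 1.20% to 1.37%, the PBS bars 0.680% and 0.937%, and the part of the other 54 RNAs is of like height in all 6. That part includes Gm42418, whose value is uncertain.

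In the comparison of IL-10/Fc with PBS, no member passed the quasi-likelihood test of edgeR at a Benjamini-Hochberg adjusted p of 0.05 over the 15477 genes tested. The smallest adjusted p of a member was 0.148, and over all genes edgeR called 0.00646% (1 gene). At an unadjusted edgeR p under 0.05 there were 13 members (23.2%), 11 higher and 2 lower in IL-10/Fc, where 12.7% of all genes stood at that level, 7.2% higher and 5.52% lower. The authors' deposited table, made with DESeq2, called 8 members (14.3%), 7 higher and 1 lower, where it called 5.3% of all listed genes (3.57% higher, 1.72% lower) and 7.06% of those with at least 5 CPM. A DESeq2 refit of the deposited counts called the same 8, with a background of 4.88% of all genes (3.34% higher, 1.54% lower). Of the 56 members, 20 (35.7%) had groups that did not overlap, 16 higher and 4 lower in IL-10/Fc, where the background was 23.6% over all genes tested (12.1% higher, 11.5% lower) and 28.0% over genes of at least 5 CPM.

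The median log2 fold change (IL-10/Fc over PBS) was 0.15 over the members and -0.01 over all genes tested, and 33 members (58.9%) lay above 0 and 23 below, where 49.3% of all genes lay above 0. The 23 RNAs of at least 20 CPM had a median of 0.48, with 18 above 0. The 33 RNAs of 5 to 20 CPM had a median of -0.08, with 15 above 0. The member median depended on the scaling: by library totals only it was -0.029, with 26 members above 0 and 30 below, while that scaling moved the median of all genes by -0.17. The mean behind the rule weights the 4 IL-10/Fc libraries above the 2 PBS libraries. An IL-10/Fc mean under 5 TMM-scaled CPM was found for 6 members. A PBS mean under 5 was found for 2, Gm19705 and Gm26614, which passed the rule only through their IL-10/Fc level and so had to differ. Among the 48 with both means at 5 or more the authors' deposited table called 5 higher and 1 lower, and of all 8727 listed genes with both means at 5 or more it called 6.44%.

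**Figure D2:**
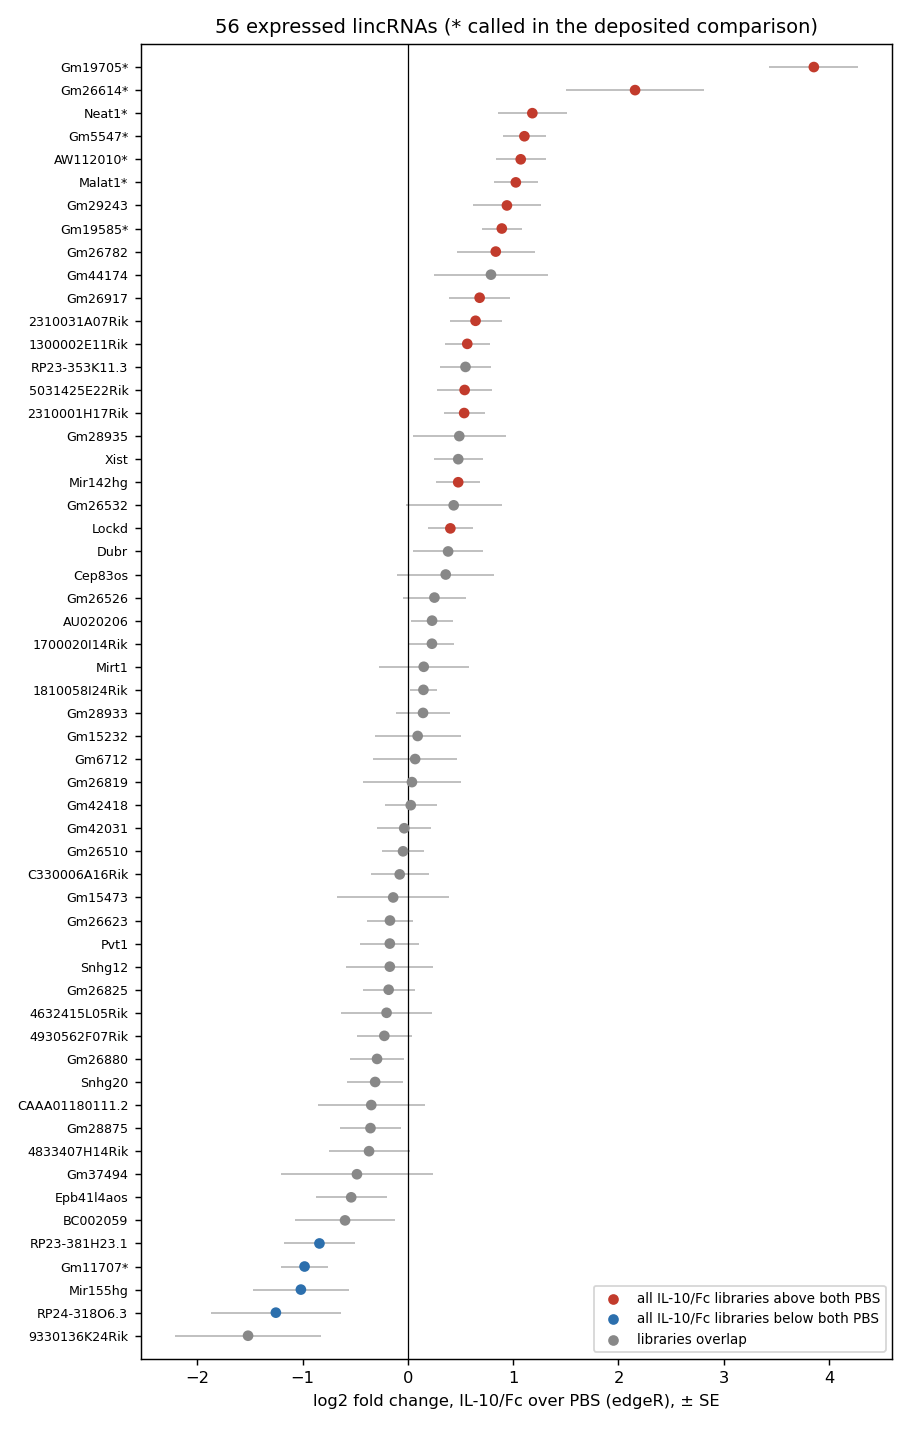
Log2 fold change (IL-10/Fc over PBS, edgeR, x axis) with its standard error for each of the 56 lincRNAs, ordered by value. Red marks the 16 RNAs whose 4 IL-10/Fc libraries all lay above both PBS libraries, blue the 4 whose libraries all lay below, and an asterisk the 8 called in the authors' deposited table. Gm19705, at 3.86, stands apart from the rest.

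AW112010 (chr19:11047617-11050566, minus strand, GRCm38) had 9768, 9062, 8496 and 10304 CPM in the IL-10/Fc libraries, against 3209 and 5743 CPM in the PBS libraries. Every IL-10/Fc library was above both PBS libraries, and the PBS libraries differed from each other by a factor of 1.79. The means were 9407 ± 793 CPM in IL-10/Fc and 4476 ± 1792 CPM in PBS (SD, n = 4 and n = 2), a ratio of 2.1 and a log2 fold change of 1.07 ± 0.24 (SE). Its adjusted p was 0.200 in edgeR and 0.00113 in the authors' deposited table. The PBS library with the lower AW112010 level, replicate 1, was also the one with the lower sum of CD8 T cell markers given above, and the part of that difference in the result was not tested.

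Both nuclear body RNAs were higher in IL-10/Fc. Malat1 (chr19:5795690-5802672, minus strand) had 1455, 1659, 1233 and 1533 CPM in IL-10/Fc, against 565 and 880 CPM in PBS, with no overlap. Its log2 fold change was 1.03 ± 0.21 (SE), with an adjusted p of 0.193 in edgeR and 5.02e-04 in the authors' deposited table. Neat1 (chr19:5824708-5845478, minus strand) had 40.8, 31.5, 29.4 and 28.1 CPM in IL-10/Fc, against 9.58 and 19 CPM in PBS, again with no overlap. Its log2 fold change was 1.18 ± 0.33 (SE), with an adjusted p of 0.268 in edgeR and 0.0169 in the authors' deposited table. The proteins of paraspeckles showed no common direction: of 7 measured, 3 were above 0 and 4 below, with a median log2 fold change of -0.05, where the median over all genes tested was -0.01. Among them, Rbm14, an RNA-binding coactivator, averaged 8.71 ± 0.604 CPM in IL-10/Fc and 14.6 ± 1.67 CPM in PBS (SD, n = 4 and n = 2). It was the sole gene of the 7 called in the authors' deposited table (adjusted p 0.0272), and edgeR called none of them.

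Gm19705 (chr1:136670769-136690804, plus strand), an RNA with 11 exons, had the largest ratio among the members, which is given as a description because its PBS level alone would not have passed the 5 CPM rule. It had 19, 22.7, 13.6 and 17.8 CPM in IL-10/Fc, against 0.849 and 1.67 CPM in PBS. The lowest IL-10/Fc library was thus far above the highest PBS library. The means were 18.3 ± 3.75 CPM in IL-10/Fc and 1.26 ± 0.578 CPM in PBS (SD, n = 4 and n = 2), a ratio of 14.5 and a log2 fold change of 3.86 ± 0.42 (SE). Its adjusted p was 0.148 in edgeR, from an unadjusted 7.15e-05, and 2.38e-19 in the authors' deposited table. Its log2 fold change stayed between 3.45 and 4.42 over the alternative settings in which it was tested. RefSeq places Gm41958 over 59.7% of the deposited span, so the counts may belong in part to that gene.

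The other called gene models of higher level were Gm19585, Gm5547 and Gm26614. Gm19585 (chr17:52149289-52163048, plus strand) had 253, 324, 328 and 350 CPM in IL-10/Fc, against 196 and 142 CPM in PBS, a log2 fold change of 0.89 ± 0.19 (SE) with an adjusted p of 0.196 in edgeR and 9.39e-04 in the authors' deposited table. Gm5547 (chr3:105815540-105817357, plus strand) had 35.3, 38.4, 39.8 and 45.4 CPM in IL-10/Fc, against 15.4 and 21.5 CPM in PBS, a log2 fold change of 1.11 ± 0.21 (SE) with an adjusted p of 0.178 in edgeR and 1.11e-04 in the authors' deposited table. Neither RNA overlapped between the groups. Gm26614 (chr9:117873144-117881202, plus strand) had 15.9, 8.75, 7.20 and 5.04 CPM in IL-10/Fc, against 1.12 and 3.01 CPM in PBS. The groups did not overlap, but the IL-10/Fc libraries ranged over a factor of 3.15. Its log2 fold change was 2.16 ± 0.66 (SE), with an adjusted p of 0.285 in edgeR and 0.0167 in the authors' deposited table. The values of Gm26614 are a description, because its PBS level alone would not have passed the 5 CPM rule.

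Gm11707 (chr11:106972058-106973090, minus strand), of whose span 96.6% lies in a RefSeq pseudogene, was the single called member of lower level. It had 7.87, 7.43, 6.88 and 8.26 CPM in IL-10/Fc, against 16.8 and 13.3 CPM in PBS, with no overlap. Its log2 fold change was -0.98 ± 0.22 (SE), with an adjusted p of 0.206 in edgeR and 0.00360 in the authors' deposited table. The call was the least stable of the 8: the DESeq2 refit lost it whichever of the 6 libraries was left out. Gm26614 and Neat1 were lost without PBS replicate 1, IL-10/Fc replicate 1 or IL-10/Fc replicate 2. Without IL-10/Fc replicate 1 or 2 the refit left 5 calls (8.93% of members), where it called 4.42% and 4.46% of all genes with an adjusted p. Without PBS replicate 2 the refit made 11 calls among the members, of which 7 were shared with the fit to all libraries and 4 were added, and it called 8.28% of all genes with an adjusted p, against 4.88% with all libraries.

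Of the 12 non-overlapping members called by neither test, 9 were higher in IL-10/Fc, with log2 fold changes of 0.40 to 0.94, and 3 were lower. The edgeR adjusted p of the 12 ranged over 0.335 to 0.495. The 9 were Gm26917, 2310031A07Rik, 1300002E11Rik, 2310001H17Rik, Lockd, Mir142hg, Gm29243, 5031425E22Rik and Gm26782. Lockd, transcribed downstream of the cell cycle inhibitor gene Cdkn1b, was at the edge of overlap, with 24.3 CPM in its lowest IL-10/Fc library and 24.2 CPM in its highest PBS library. Gm29243 had 19.7, 25.1, 15.6 and 18.6 CPM in IL-10/Fc, against 7.44 and 13.2 CPM in PBS (log2 fold change 0.94 ± 0.32, SE). RP23-381H23.1 had 14.2, 9.73, 15 and 22.5 CPM in IL-10/Fc, against 23.5 and 31.5 CPM in PBS (log2 fold change -0.84 ± 0.34, SE). RP24-318O6.3 had 2.51, 6.77, 3.28 and 1.28 CPM in IL-10/Fc, against 8.59 and 7.91 CPM in PBS (log2 fold change -1.25 ± 0.62, SE). Its direction is a description, because its IL-10/Fc level alone would not have passed the 5 CPM rule.

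**Figure D3:**
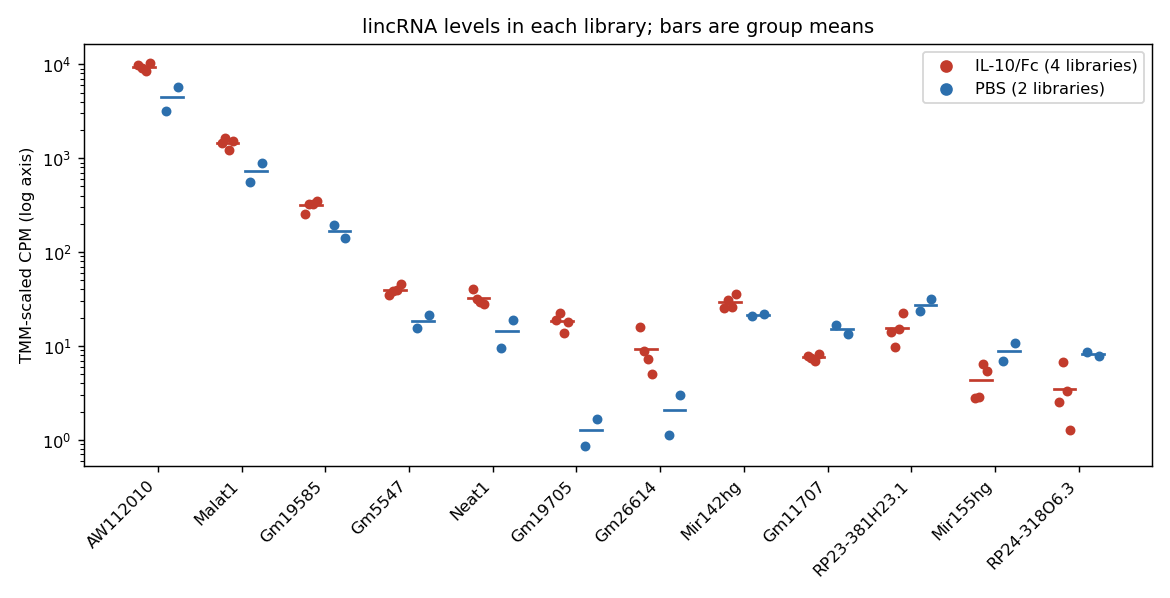
Level in each library (TMM-scaled CPM, log axis) of the 8 called lincRNAs, Mir142hg and the 3 other RNAs of lower level, with IL-10/Fc in red left of PBS in blue and bars at the group means. None of the 12 overlaps between groups, and Gm19705 has the widest gap, with 13.6 to 22.7 CPM in IL-10/Fc and 0.849 and 1.67 CPM in PBS.

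The microRNA hosts among the members differed in direction, without passing any test. Mir142hg, host of the miR-142 sequences shown above, had 25.1, 31.2, 25.8 and 35.9 CPM in IL-10/Fc, against 20.7 and 21.7 CPM in PBS (log2 fold change 0.48 ± 0.21, SE). Mir155hg had 2.78, 2.86, 6.41 and 5.44 CPM in IL-10/Fc, against 6.89 and 10.8 CPM in PBS (log2 fold change -1.02 ± 0.46, SE). The direction of Mir155hg is a description, because its IL-10/Fc level alone would not have passed the 5 CPM rule. Neither host overlapped between groups, though for Mir155hg the nearest libraries were only 6.41 CPM in IL-10/Fc and 6.89 CPM in PBS. The adjusted p was 0.408 for Mir142hg and 0.429 for Mir155hg in edgeR, and 0.250 and 0.292 in the authors' deposited table. The difference between the hosts' responses was not tested. Of the 10 microRNA hosts on the list, 5 were measured, and no test called any of them.

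Hosts of small nucleolar RNAs lay mostly below 0. Of 24 on the list, 15 were in the table and 14 were tested, of which 13 had a log2 fold change below 0 and 1 above. Over all genes tested, 49.3% lay above 0. The median of the hosts was -0.38, beside -0.01 over all genes tested. No edgeR call was made among them. The authors' deposited table called 1 of the 15, Zfas1 (adjusted p 0.0411), where it called 5.3% of all listed genes. Zfas1 had 23 ± 3.25 CPM in IL-10/Fc and 35.8 ± 1.29 CPM in PBS (SD, n = 4 and n = 2). Without PBS replicate 1 the count was 9 below and 6 above 0 of 15 tested, and by library totals only it was again 13 below and 1 above of 14. The 3 hosts among the members overlapped between groups. Snhg20 had a log2 fold change of -0.31 ± 0.27 (SE), Epb41l4aos of -0.54 ± 0.34 (SE) and Snhg12, in whose span Snora16a, Snora44, Snora61 and Snord99 lie, of -0.17 ± 0.41 (SE).

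Xist had 180, 109, 128 and 135 CPM in IL-10/Fc, against 83.9 and 114 CPM in PBS, and the groups overlapped (log2 fold change 0.48 ± 0.23, SE). Pvt1, a neighbour of the Myc oncogene, overlapped as well (log2 fold change -0.17 ± 0.28, SE). No test called any of the 4 X inactivation RNAs, the 3 imprinted RNAs or the 9 RNAs of chromatin, decay and stability that were measured. Other abundant members whose groups overlapped were Gm42418 (0.03 ± 0.25), Gm26623 (-0.17 ± 0.22), 1700020I14Rik (0.23 ± 0.21) and 1810058I24Rik (0.15 ± 0.13), all as log2 fold change ± SE. Among the 36 overlapping members, 17 were above and 19 below 0, from -1.52 to 0.79. The lowest value was that of 9330136K24Rik, which had 3.79, 4.32, 3.49 and 3.28 CPM in IL-10/Fc, against 18.9 and 2.45 CPM in PBS. That value rested on PBS replicate 1, and without it the log2 fold change was 0.60.

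The spread between replicates set what could be told apart. The highest library exceeded the lowest by a median factor of 1.67 among the 4 IL-10/Fc libraries and 1.36 between the PBS libraries. A range over 4 libraries tends to exceed a range over 2, so these factors do not compare the spread of the groups. For 9 members the PBS libraries differed by a factor above 2, and all but 4833407H14Rik of these averaged under 20 CPM. The biological coefficient of variation that edgeR estimated over all genes was 0.543. A difference that missed the threshold here is not shown to be absent.

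Neighbouring genes were taken from the deposited spans as the nearest listed gene on each side within 100 kb. This gave 87 pairs for 55 members, 60 of them with a protein-coding neighbour. With the nearest listed genes beyond 100 kb included, the median gap was 22.0 kb. Member and neighbour had log2 fold changes of the same sign in 48 of 87 pairs (55.2%), where 53.1% of 23692 pairs over all listed genes did. Pearson's r between the log2 fold changes was 0.07 over the member pairs and 0.09 over all listed genes. These are descriptions over pairs that share libraries and, in part, neighbours. Among the 15 pairs whose spans overlap, 9 had the same sign, where 2572 of 4702 overlapping pairs over all listed genes did.

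The called members had 13 neighbour pairs within 100 kb, of which 9 had the same sign, where 53.1% of pairs over all listed genes did. In 2 of the 13 the neighbour was called in the authors' deposited table, which called 5.3% of all listed genes. Both are the pair of Malat1 and Neat1, which lie 22.0 kb apart, counted from each end here and among the 9. On the outer side of Neat1, at 4.22 kb, Frmd8 had a log2 fold change of 0.12. AW112010 lies 9.98 kb from Gm28347, at 2.52 CPM in IL-10/Fc and 0.945 CPM in PBS (log2 fold change 1.41, edgeR adjusted p 0.322). On its other side is Ms4a8a, at 3.15 CPM in both groups (log2 fold change 0.00). Gm19705 lies 40.7 kb from Zfp281, a zinc finger transcription factor gene, at 26.2 CPM in IL-10/Fc and 19.6 CPM in PBS (log2 fold change 0.42, edgeR adjusted p 0.562). Gm5547 has Rap1a, which encodes a small GTPase of integrin activation, at 14.2 kb (log2 fold change 0.25), and Gm11707 has Kpna2, a nuclear import receptor gene, at 15.5 kb (log2 fold change -0.21).

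Gm19585 had no listed gene within 100 kb. The nearest was Satb1, 316 kb away, which encodes a chromatin organiser of T cells. Satb1 averaged 137 CPM in IL-10/Fc and 39.7 CPM in PBS, a log2 fold change of 1.79 with an adjusted p of 0.200 in edgeR, and it was called higher in the authors' deposited table. Among the RNAs not called, 2310001H17Rik lies 28.6 kb from Cd69, an activation and tissue retention marker, at 223 CPM in IL-10/Fc and 122 CPM in PBS (log2 fold change 0.87, edgeR adjusted p 0.477). Gm44174, named here after its values were seen, ends 0.143 kb from Cd8a, a marker of the sorted cells, which averaged 3074 CPM in IL-10/Fc and 1601 CPM in PBS (log2 fold change 0.94, edgeR adjusted p 0.351). Gm44174 had 7.17, 11.9, 7.78 and 10.1 CPM in IL-10/Fc, against 2.34 and 8.36 CPM in PBS, and overlapped. Gm28935 lies 26.1 kb from the macrophage marker Ms4a7, at 14.8 CPM in IL-10/Fc and 1.55 CPM in PBS. The log2 fold change was 0.49 for Gm28935 and 3.25 for Ms4a7 (edgeR adjusted p 0.268), which the authors' deposited table called. On the other side of Gm28935, at 11.6 kb, Ms4a4a averaged 94.3 CPM in IL-10/Fc and 111 CPM in PBS (log2 fold change -0.23). RP24-318O6.3 lies 13.8 kb from Tgfbr2, a TGF-beta receptor gene, with a log2 fold change of 0.26 against -1.25 for the lincRNA, and Mir155hg lies 2.33 kb from Mrpl39, with 0.21 against -1.02.

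**Figure D4:**
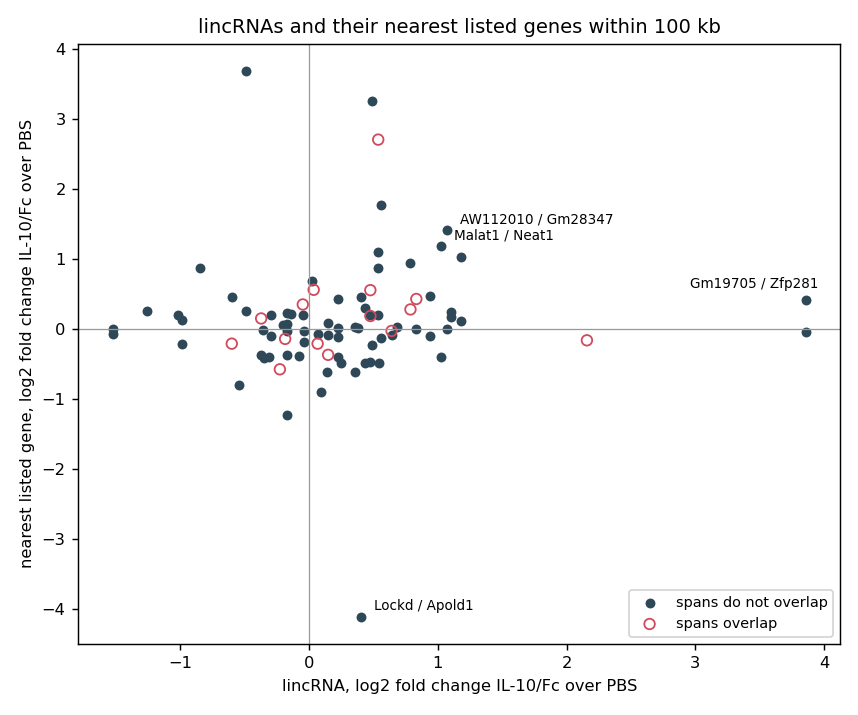
Log2 fold change (IL-10/Fc over PBS) of each lincRNA (x axis) and of its nearest listed genes within 100 kb (y axis), with open circles for pairs whose spans overlap. The 87 pairs scatter over all quadrants, and 48 of them lie where both signs are the same.

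Other classes of transcript of at least 5 CPM were set beside the lincRNAs. The share of genes above 0 was 58.9% for the 56 lincRNAs, 76.9% for 26 antisense RNAs, 61.9% for 42 processed transcripts, 87.5% for 24 TEC transcripts (a GENCODE class of unspliced loci still to be tested) and 47.5% for 7880 protein-coding genes. The authors' deposited table called 14.3% of the lincRNAs, 3.85% of the antisense RNAs, 11.9% of the processed transcripts, 33.3% of the TEC transcripts and 7.42% of the protein-coding genes. The differences between classes were not tested. Gm14005 and Gm20069, noncoding RNAs on the immune list under other biotypes, averaged 17.2 ± 3.19 and 15.1 ± 6.4 CPM in IL-10/Fc, against 4.15 ± 2.59 and 3.49 ± 1.01 CPM in PBS (SD, n = 4 and n = 2). In the authors' deposited table both were called, with higher levels in IL-10/Fc.

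Among the 336 lincRNAs below the 5 CPM threshold, the authors' deposited table called 11 (3.27%), 10 higher and 1 lower. Of all 6586 listed genes below 5 CPM it called 2.81%, a share close to that of the lincRNAs. The smallest adjusted p among them belonged to A930002I21Rik (chr3:107090880-107098401), with 2.24, 11.4, 3.96 and 9.35 CPM in IL-10/Fc and no count in either PBS library. Set against a floor of 3 counts in each PBS library, its mean CPM of the library total in IL-10/Fc was at least 57.6-fold higher. That bound holds for the mean and not for each library. Its adjusted p was 0.158 in edgeR and 2.92e-07 in the authors' deposited table. The RNA was picked by the latter, so these values are a description.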

How the data were processed

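RNA was measured in 6 Smart-Seq2 libraries, which prime on poly(A), copy whole transcripts, carry no molecular identifiers and do not mark strand. The authors deposited raw counts, whole numbers per gene and library, and, for the series, the same counts with a DESeq2 comparison: log2 fold changes with standard errors, p-values and adjusted p-values, a Wald score and a mean normalized signal, per the file headers. The build was GRCm38 (mm10) and the tools included TopHat2 2.1.1, Trimmomatic, Cufflinks 2.2.1, DESeq2, Bowtie2 2.2.9 and Cuffdiff, per the submitters' processing notes. The tool that counted reads was not given in the sources used here. Genes outside the 15898 listed were not analysed here. The PBS libraries, 2 and 3 in column names, are numbered 1 and 2 here, as in their titles.

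From the counts, edgeR 4.0.16 (R 4.3.3) was run on all listed genes: filterByExpr by group left 15477, followed by TMM factors (0.950 to 0.983 in IL-10/Fc, 1.10 and 1.06 in PBS), the robust quasi-likelihood test with group as the sole term, two-sided, and Benjamini-Hochberg adjustment at 0.05. Standard errors are the log2 fold change over the root of the F statistic. The fits were tested on simulated data. DESeq2 1.42.0 and limma-voom (limma 3.58.1) were alternatives, as were other scalings and filters, a replicate block, each library left out, other membership thresholds and other neighbour distances. The DESeq2 refit without each library was chosen after seeing the data. Exon lengths and overlaps come from GENCODE M21, sequences from RefSeq (GRCm38.p6). Floors cover counting error only.

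The members, lists and tests were chosen with earlier results of these data known. RNAs named are the 8 most abundant members, those called in any test, the non-overlapping members of smallest p, members on the role lists and their neighbours. Dubr, Gm28935, Gm44174, 9330136K24Rik, Mirt1 and 4833407H14Rik were named after their values were seen.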

Additional observations from a re-analysis of the deposited data

Results flagged for a closer look

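In 3 of 35 named RNAs the highest of the 4 IL-10/Fc libraries stood apart from the others, by Dixon's criterion at the 95% level, and chance alone sets apart about 1 in 20 groups. Gm26917 had 136 CPM in IL-10/Fc replicate 1, against 74.5, 78.5 and 81.5 CPM in the other IL-10/Fc libraries. Dubr, an RNA described in mouse muscle stem cells, had 79.2 CPM in the same library, against 38.5, 41.5 and 42.8 CPM. Snhg12 had 7.81 CPM in IL-10/Fc replicate 2, against 3.85, 3.99 and 4.22 CPM.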

How the results depend on the processing

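No member was called by edgeR or limma-voom under any setting. The DESeq2 Wald test called 8 (14.3%), where it called 4.88% of all genes with an adjusted p. With each IL-10/Fc library left out it called 5 to 7 members (8.93% to 12.5%), where it called 3.17% to 4.62% of all genes with an adjusted p. The member median log2 fold change was 0.077 to 0.25 with each library left out of the edgeR fit, 0.37 over the 26 members left by a filter of 20 CPM in 2 libraries, 0.32 over the 36 members of at least 10 CPM and -0.029 by library totals only. A threshold of 2 CPM gave 120 members. Members whose groups did not overlap numbered 22 to 38 with a library left out. Without PBS replicate 2 they numbered 38 (67.9%), where 52.5% of all genes tested did not overlap; without PBS replicate 1 they numbered 28 (50%), where 47.2% did not; without an IL-10/Fc library they made up 39.3% to 42.9%, where 28.6% to 30.8% of all genes tested did not. Same-sign neighbour pairs numbered 12 of 14 with the 20 CPM filter, which leaves few genes.

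The labels do not state that replicate numbers pair the libraries. The correlation of deviations from the group means was 0.06 for replicate 1 and 0.01 for replicate 2. It cannot settle the pairing, because the deviations of 2 PBS libraries mirror each other. With the replicate block 0 members were called, the median was 0.18 and 50 pairs had the same sign, while Snhg12 turned to 0.017 and Pvt1 to 0.11. By library totals only, log2 fold changes turned to -0.15 for Gm42418, -0.024 for 1810058I24Rik and -0.033 for Mirt1. With each library left out, they ranged over -0.16 to 0.22 for Gm42418, -0.36 to 0.048 for Gm26623, -0.060 to 0.59 for 1700020I14Rik, -0.48 to 0.086 for Snhg12, -0.39 to 1.03 for Mirt1, -0.88 to 0.43 for 4833407H14Rik and -2.34 to 0.60 for 9330136K24Rik. The cause was not tested. The other 26 of the 35 named RNAs kept their direction in all settings run. Counting depth puts the floor at 0.0812 to 0.112 CPM, below the level of each named RNA among the members in every library.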
